A study of Mus musculus with 8 samples.

Results

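The genes described are 31 enzymes that build cholesterol and fatty acids, measured in OT-I CD8+ T cells 24 h after stimulation with OVA-T4, with or without TGFβ. They were taken by gene name from the deposited table, 18 in a sterol arm and 13 in a fatty acid arm. The table holds 47069 gene IDs. Each member matched 1 row, and all 31 were among the 12879 genes that were tested.

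Both arms begin with acetyl-CoA in the cytosol. Cholesterol synthesis runs through mevalonate and isoprene units to squalene, which is closed into lanosterol and then trimmed to cholesterol. Fatty acid synthesis makes malonyl-CoA, joins it into palmitate, and then lengthens, desaturates and activates the chain. SREBP transcription factors, which Scap carries out of the endoplasmic reticulum and Insig proteins hold back when sterols are plentiful, drive many of these genes. Lymphocytes are known to turn on lipid synthesis after antigen stimulation, when they enlarge and need new membrane.

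All OT-I T cells bear the same transgenic receptor, which recognises a fragment of ovalbumin. OVA-T4 (SIITFEKL) is a variant of that fragment which the receptor binds with low affinity. Cells came from mouse lymph nodes and are given as wild-type, although they carry the receptor transgene. They received 10 nM of the peptide alone (OVA-T4, 4 libraries) or with 5 ng/ml recombinant TGFβ (OVA-T4 + TGFβ, 4 libraries). Each library was a biological replicate of 5000000 cells. TGFβ is a cytokine that restrains T cell activation, and the comparison asks how it alters the transcripts of stimulated cells. Every cell received peptide, so there was no unstimulated group. The methods name both OT-I and OT-I Rag1-/- mice, which lack mature B cells, and do not say which gave these samples. The genotype of the mice is therefore not settled. For the experiments as a whole the methods give mice of 7 to 12 weeks, matched for age and sex. No sort is described. For lymph nodes of OT-I Rag1-/- mice the methods give a high typical purity of CD8 T cells, but none for these samples.

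Values are FPKM, reads scaled to the length of the gene and to the total of the library, so levels can be compared between genes per length. The whole reads behind the values could be solved, and the libraries held 35586261 to 41597929 reads, at which 1 read in 1 kb is worth 0.0240 to 0.0281 FPKM. Among the members, Scd1 rested on the fewest reads (16 to 511 in a library), followed by Fads2 (26 to 686) and Fdps (103 to 165). Replicates of a group had Pearson r of 0.981 to 0.992 across genes, which are not independent. In OVA-T4 replicate 2 a single gene took 5.35% of the FPKM sum, against 1.74% to 2.26% in the other libraries.

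The CD8 T cell markers summed to 2272 to 2559 FPKM with OVA-T4 and 2834 to 3001 FPKM with OVA-T4 + TGFβ, and of these 8 genes 6 were higher and 1 was lower. The higher ones were 3 with scaling by median of ratios, and 4 when OVA-T4 replicate 2 or 3 or OVA-T4 + TGFβ replicate 1 or 4 was left out. In FPKM with all libraries, 30.7% of all 12879 genes tested were higher and 20.2% lower, the background for the marker counts. Macrophage markers summed to 4.89 to 13.8 FPKM and 10.9 to 46.9 FPKM (4 of 10 tested, 2 higher). Dendritic cell markers summed to 5.95 to 15.1 FPKM and 17.7 to 28.3 FPKM (3 of 9 tested, 3 higher). B cell markers summed to 3.87 to 5.25 FPKM and 10.3 to 12.3 FPKM (2 of 8 tested, 2 higher), with Ms4a1 at 0 in all libraries. The sums of these 3 other cell types were thus higher with TGFβ and small beside those of T cells. Their part in the results below was not tested. The filter on low values took both groups together. Cd79a (B cell), Itgax (dendritic cell) and C1qb (macrophage) averaged 0.420, 0.262 and 0.0852 FPKM with OVA-T4. They came above the cutoff of 0.5 FPKM only through the TGFβ libraries, and all were called higher. Cd79b, Lyz2, H2-Aa and H2-Ab1, also called higher, averaged above the cutoff in both groups. The counts of higher markers of these cell types thus depend in part on the filter.

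TGFβ lowered more members of each arm than it raised. In the sterol arm 7 of 18 members fell (Hmgcs1, Idi1, Sqle, Lss, Cyp51, Msmo1 and Hsd17b7), 1 rose (Tm7sf2) and 10 did not pass the test. In the fatty acid arm 6 of 13 fell (Acly, Acaca, Fasn, Elovl1, Elovl6 and Acsl4), 1 rose (Acss2) and 6 did not pass. Of all 12879 genes tested, 20.2% were lower and 30.7% were higher, which is the background for these counts, and the difference from it was not tested. The share of higher genes among all calls depended on the scaling. It was 60.3% in FPKM, 47.4% after median of ratios scaling and 46.8% after quantile normalization. Quantile normalization moved the fold changes of all genes by a median of -0.13 on the log2 scale. Under median of ratios scaling, quantile normalization and TPM scaling no called member changed sign. Mvd, Nsdhl, Sc5d and Fads1, which did not pass, did in at least 1. The test was limma on log2(FPKM + 0.5), with a call at a Benjamini-Hochberg adjusted p under 0.05 over all genes tested. In bulk RNA, fewer cells that express a gene and less RNA per cell cannot be told apart.

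The median log2 fold change was -0.20 over the 18 sterol members and -0.32 over the 13 fatty acid members, beside 0.08 over all genes tested. These medians moved with single libraries. Without OVA-T4 replicate 3 they were -0.10 and -0.15. The fatty acid median was also -0.20 without OVA-T4 replicate 2 or OVA-T4 + TGFβ replicate 1, and -0.18 without OVA-T4 + TGFβ replicate 4. Without OVA-T4 + TGFβ replicate 1, 4 sterol members passed as lower in place of 7, since Hmgcs1, Cyp51 and Hsd17b7 did not pass.

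Most of the changes were small. Among the members that passed the test without a block, those past 1.5-fold were 2 lower sterol members (Idi1 and Lss) and 1 higher (Tm7sf2), and 2 lower fatty acid members (Fasn and Elovl6) and 1 higher (Acss2). Fads2 had the lowest fold change of all 31 members (-1.19 on the log2 scale) and did not pass in this fit. Genes called past 1.5-fold made up 6.07% (lower) and 13.7% (higher) of all genes tested. Idi1 lay close to the cutoff, at 0.666 of its level without TGFβ. The lower sterol members past 1.5-fold were 1 with a pseudocount of 1 FPKM, TPM scaling or quantile normalization. After median of ratios scaling they were 3. The libraries of the groups did not overlap for 11 members with lower values and 2 with higher values under TGFβ, and overlapped for 18. Among all genes tested, 18.9% lay apart as lower and 29.1% as higher.

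The groups share the replicate numbers 1 to 4, and partners with a shared number tended to stray from their group means in the same direction. OVA-T4 + TGFβ replicates 1 and 2 followed OVA-T4 replicates 4 and 3 more closely than their partners, and the labels state no pairing. A fit with the number as a block was made as well. It left each fold change as it was and narrowed its interval, with a median standard error over the members of 0.063 in place of 0.11. With it 6 more members passed. Acat2, Fdft1, Elovl5, Fads2 and Acsl3 were lower and Ebp was higher, which gave 9 lower and 2 higher in the sterol arm and 9 lower and 1 higher in the fatty acid arm. With the block, 25.4% of all genes tested were lower and 35.5% were higher. Over the same-numbered pairs, 18 of the 31 members were lower with TGFβ in 4 of 4 pairs and 4 were higher in 4 of 4 (Tm7sf2, Ebp, Acss2 and Fads1), beside 28.4% and 40.2% of all genes tested.

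**Figure D1:**
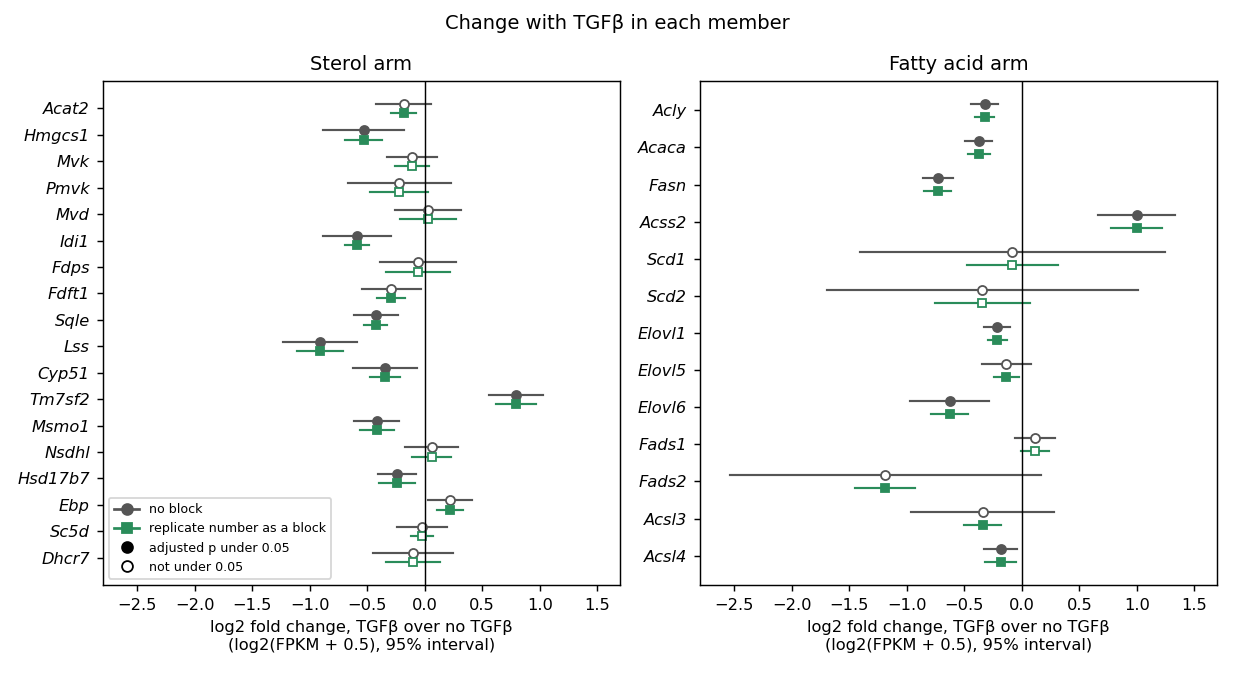
Each point is the log2 fold change (x axis, OVA-T4 + TGFβ over OVA-T4, on log2(FPKM + 0.5)) of 1 member with its 95% interval, from limma without a block (grey) and with the replicate number as a block (green), for 4 libraries a group. Filled symbols had an adjusted p under 0.05. Most points lie left of 0, Tm7sf2 and Acss2 lie farthest right, and the intervals of Scd1, Scd2, Fads2 and Acsl3 narrow most with the block.

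The first steps of the sterol arm, from acetyl-CoA to mevalonate and its phosphates, moved unevenly. Hmgcs1 makes HMG-CoA, an early intermediate of the arm (GRCm38, chromosome 13, 119690379 to 119708260). It was at 79.3, 87.1, 102 and 65.0 FPKM in OVA-T4 replicates 1 to 4 and at 48.7, 68.6, 64.3 and 48.8 FPKM in OVA-T4 + TGFβ replicates 1 to 4. Replicates 2 and 3 were the highest of each group, and the groups overlapped only because OVA-T4 replicate 4 was below OVA-T4 + TGFβ replicate 2. Hmgcs1 fell (log2 fold change -0.53 ± 0.16 SE, limma adjusted p = 0.0187). The adjusted p was 0.0509 when OVA-T4 replicate 2 was left out and 0.0554 when OVA-T4 + TGFβ replicate 1 was.

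Acat2, the cytosolic thiolase that starts the pathway, was at 32.1 ± 3.15 FPKM (SD, n = 4) and 28.3 ± 3.91 FPKM. Its log2 fold change of -0.18 had a limma adjusted p of 0.177 and 0.0109 with the replicate block. Acat2 is 97.7% identical to Acat3 over 1477 aligned bases, and Acat3 itself was at 0.511 ± 0.225 FPKM and 0.360 ± 0.118 FPKM. It also shares at least 200 bases with an annotated transcript of Tcp1, which was at 425 ± 40.2 FPKM and 302 ± 25.2 FPKM.

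The kinases and the decarboxylase that follow did not pass the test. Mvk, mevalonate kinase, had a log2 fold change of -0.11 (95% interval -0.32 to 0.11). For Pmvk, phosphomevalonate kinase, it was -0.22 (-0.67 to 0.23), and for Mvd, the decarboxylase that yields isopentenyl pyrophosphate, it was 0.03 (-0.26 to 0.32). Pmvk spread widely with OVA-T4, from 28.2 FPKM in replicate 4 to 58.4 FPKM in replicate 3, and narrowly with OVA-T4 + TGFβ, from 31.4 to 39.1 FPKM.

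Idi1, the isomerase that turns isopentenyl into dimethylallyl pyrophosphate, lies on chromosome 13 from 8885501 to 8892451. It was at 79.3, 89.5, 102 and 72.0 FPKM with OVA-T4 and at 49.9, 64.7, 64.2 and 49.0 FPKM with OVA-T4 + TGFβ. All TGFβ libraries lay below all others. Idi1 fell (log2 fold change -0.59 ± 0.13 SE, limma adjusted p = 0.00484), and 3 pseudogenes that resemble it were low beside it, at 1.45 FPKM summed with 1 further gene.

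Fdps, which joins isoprene units into farnesyl pyrophosphate, was the lowest of the sterol arm, at 2.90 ± 0.408 FPKM and 2.79 ± 0.576 FPKM (log2 fold change -0.06, 95% interval -0.39 to 0.28). It has 6 genes of at least 90% identity over 200 bases, 5 of them pseudogenes, which summed to 10.4 FPKM. Its level is uncertain, since how reads shared between copies were counted is not given in the sources used here.

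Fdft1, squalene synthase, sits at the branch that commits farnesyl pyrophosphate to sterols. It was at 18.4, 21.8, 23.7 and 17.4 FPKM with OVA-T4 and at 14.8, 18.2, 17.9 and 15.0 FPKM with OVA-T4 + TGFβ. Each TGFβ library lay below its numbered partner, though the groups overlapped. The log2 fold change of -0.29 had a limma adjusted p of 0.0584 and 0.00234 with the replicate block, and without OVA-T4 replicate 4 it was 0.0259. Fdft1 shares 774 exon bases with Ctsb on the opposite strand, which was at 23.8 ± 0.943 FPKM and 32.7 ± 2.58 FPKM. Whether the counting used strand is not stated.

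Squalene epoxidation and ring closure fell. Sqle, squalene epoxidase and a second control point of the pathway, was at 33.8, 38.6, 39.7 and 32.8 FPKM with OVA-T4 and at 25.2, 29.5, 28.1 and 24.5 FPKM with OVA-T4 + TGFβ, with no overlap (log2 fold change -0.43 ± 0.08 SE, limma adjusted p = 0.00268). Lss, lanosterol synthase, which folds epoxidised squalene into the first sterol, lies on chromosome 10 from 76531588 to 76557138. It was at 20.2, 25.6, 30.9 and 20.0 FPKM with OVA-T4 and at 10.6, 13.9, 13.1 and 12.3 FPKM with OVA-T4 + TGFβ. The highest TGFβ library was below the lowest library without TGFβ, and the fold decrease within numbered pairs was 1.63 to 2.36. Lss had the lowest fold change of the 18 sterol members (log2 fold change -0.91 ± 0.14 SE, limma adjusted p = 0.000728).

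The steps from lanosterol to cholesterol split. Cyp51, the lanosterol demethylase, had the highest level of the arm, at 118 ± 20.0 FPKM and 92.2 ± 10.3 FPKM. It fell by 0.34 on the log2 scale (limma adjusted p = 0.0400), a call that did not hold without OVA-T4 replicate 2 (0.0906) or 3 (0.0838) or OVA-T4 + TGFβ replicate 1 (0.108) or 4 (0.0908). Msmo1, the methylsterol oxidase that starts removal of the remaining methyl groups, fell from 31.6 ± 3.39 FPKM to 23.5 ± 1.80 FPKM without overlap (log2 fold change -0.42, limma adjusted p = 0.00329). Hsd17b7, the ketosteroid reductase of the same complex, fell from 13.5 ± 1.22 FPKM to 11.3 ± 0.455 FPKM (log2 fold change -0.24, limma adjusted p = 0.0219, and 0.0651 without OVA-T4 + TGFβ replicate 1). Nsdhl, the dehydrogenase between them, was at 20.7 ± 3.18 FPKM and 21.4 ± 0.765 FPKM and did not pass (log2 fold change 0.06, 95% interval -0.17 to 0.29).

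Tm7sf2, a sterol reductase that acts just after Cyp51, rose. It lies on chromosome 19 from 6062821 to 6068373 and was at 8.41, 8.48, 9.91 and 9.42 FPKM with OVA-T4 and at 15.6, 13.7, 16.1 and 19.3 FPKM with OVA-T4 + TGFβ. The groups lay apart, with a fold increase of 1.62 to 2.05 within numbered pairs (log2 fold change 0.80 ± 0.10 SE, limma adjusted p = 0.000247). Tm7sf2 shares 532 exon bases with Vps51 on the same strand, and Vps51 was at 36.0 ± 1.15 FPKM and 41.3 ± 1.44 FPKM. The reads of the shared stretch were not separated, and their part in the rise was not tested.

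The same reaction is also carried out by Lbr, the lamin B receptor, which was far more abundant per length (200 ± 22.3 FPKM and 146 ± 24.1 FPKM) and fell (log2 fold change -0.46, limma adjusted p = 0.0109). Tm7sf2 made up 3.93% to 5.18% of the summed FPKM of the pair with OVA-T4 and 8.24% to 13.9% with OVA-T4 + TGFβ. This ratio was chosen after the values were seen and was not tested.

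The last isomerase, desaturase and reductase did not pass as lower. Ebp, the sterol isomerase, was at 38.1, 41.1, 44.6 and 34.0 FPKM with OVA-T4 and at 44.0, 48.4, 48.0 and 43.3 FPKM with OVA-T4 + TGFβ. Each TGFβ library was above its numbered partner, and the groups overlapped through OVA-T4 replicate 3. The log2 fold change of 0.22 had a limma adjusted p of 0.0522, 0.00572 with the replicate block and 0.0182 without OVA-T4 replicate 3. After median of ratios scaling it did not pass with the block either. Sc5d, the lathosterol desaturase, was nearly level at 35.2 ± 3.48 FPKM and 34.7 ± 4.10 FPKM (95% interval of the log2 fold change -0.24 to 0.20, and its pairs differed by -0.09 to 0.01). Dhcr7, which reduces the last ring double bond in one of the routes, was at 28.5 to 47.4 FPKM and 33.8 to 39.0 FPKM (95% interval -0.45 to 0.25).

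**Figure D2:**
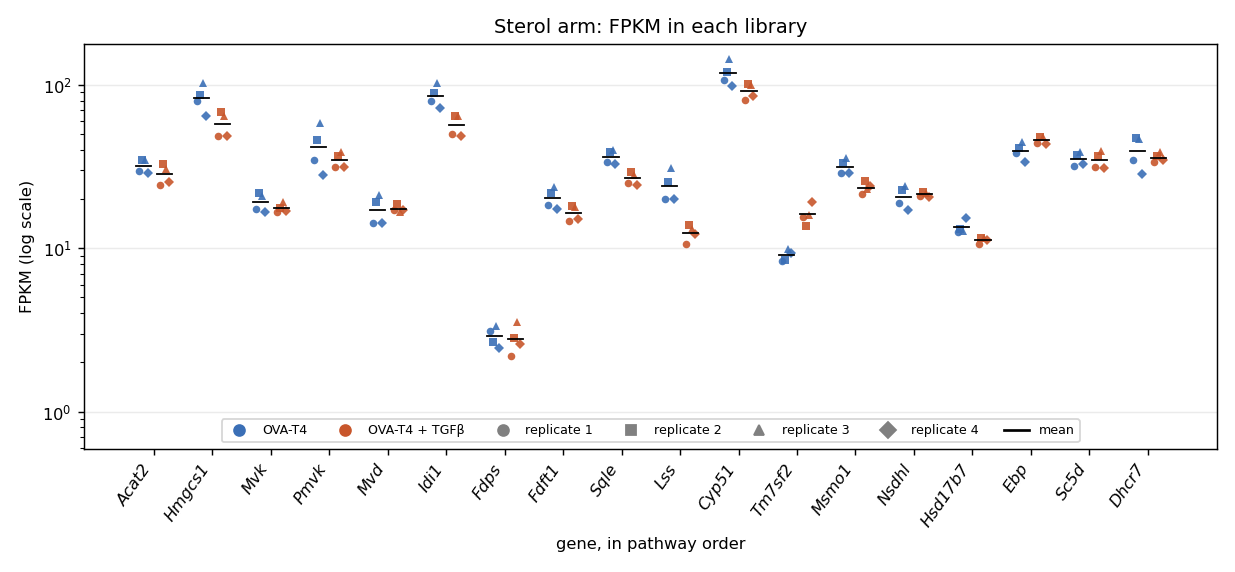
FPKM (y axis, log scale) of the 18 sterol members in pathway order (x axis), with 4 OVA-T4 libraries in blue, 4 OVA-T4 + TGFβ libraries in orange, a symbol for each replicate number and bars at the means. Lss separates downward and Tm7sf2 upward without overlap, and the squares and triangles (replicates 2 and 3) lie at the top of most columns in both colours.

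In the fatty acid arm the enzymes that make palmitate fell, with little spread between replicates. Acly, which splits citrate to supply cytosolic acetyl-CoA, had the highest level of all 31 members. It was at 167, 181, 180 and 161 FPKM with OVA-T4 and at 131, 142, 139 and 137 FPKM with OVA-T4 + TGFβ, without overlap (log2 fold change -0.32 ± 0.05 SE, limma adjusted p = 0.000700). Acaca, the carboxylase that makes malonyl-CoA and sets the pace of the pathway, fell from 39.3 ± 0.902 FPKM to 30.2 ± 1.60 FPKM (log2 fold change -0.37, limma adjusted p = 0.000351).

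Fasn, the synthase that assembles palmitate, lies on chromosome 11 from 120805846 to 120824547. It was at 143, 154, 147 and 142 FPKM in the OVA-T4 libraries and at 85.8, 90.7, 81.1 and 95.9 FPKM in the OVA-T4 + TGFβ libraries. The replicates of each group lay close together and the groups far apart, with a fold decrease of 1.48 to 1.82 within numbered pairs. Fasn had the lowest p of the 31 members (log2 fold change -0.73 ± 0.06 SE, limma adjusted p = 1.47e-05), and TGFβ accounted for 96.4% of its sum of squares over the libraries.

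Acss2, which makes acetyl-CoA from acetate rather than citrate, rose. It lies on chromosome 2 from 155517948 to 155585724 and was at 6.54, 4.97, 7.41 and 6.61 FPKM with OVA-T4 and at 15.5, 10.5, 12.1 and 14.9 FPKM with OVA-T4 + TGFβ. Its groups lay apart, with a fold increase of 1.64 to 2.38 within pairs, and it had the highest fold change of the 31 members (log2 fold change 1.00 ± 0.15 SE, limma adjusted p = 0.000504). Acss2 shares exon bases with 3 other genes, 927 in all. The largest overlap, of 395 bases, is with Gss on the opposite strand, which was level at 11.9 ± 0.701 FPKM and 11.8 ± 0.577 FPKM. The reads of the shared stretches were not separated, and their part in the rise was not tested. As a share of the summed FPKM of Acly and Acss2, Acss2 took 2.68% to 3.95% with OVA-T4 and 6.91% to 10.6% with OVA-T4 + TGFβ, a ratio chosen after the values were seen and not tested.

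Of the elongases, Elovl6, which lengthens palmitate to stearate, was at 17.5, 21.0, 26.4 and 16.0 FPKM with OVA-T4 and at 12.4, 13.3, 14.6 and 10.7 FPKM with OVA-T4 + TGFβ. It fell without overlap (log2 fold change -0.63 ± 0.15 SE, limma adjusted p = 0.00756). Elovl1, which makes very long saturated chains, fell less, from 72.8 ± 3.80 FPKM to 62.6 ± 1.49 FPKM (log2 fold change -0.22, limma adjusted p = 0.00562). Elovl5, an elongase of polyunsaturated chains, was at 108 ± 13.7 FPKM and 97.7 ± 7.41 FPKM, with a limma adjusted p of 0.265 and 0.0355 with the replicate block.

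The desaturases Scd1, Scd2 and Fads2 spread more between replicates than any other member. Scd2, the stearoyl-CoA desaturase that predominated in these cells, lies on chromosome 19 from 44293674 to 44306864. It was at 32.1, 78.8, 115 and 16.2 FPKM in OVA-T4 replicates 1 to 4 and at 26.2, 53.3, 62.7 and 20.9 FPKM in OVA-T4 + TGFβ replicates 1 to 4. The order of the 4 numbers was the same in both groups, and the groups overlapped over most of their range. The log2 fold change of -0.34 did not pass the test (95% interval -1.69 to 1.01, and adjusted p = 0.126 with the replicate block).

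Scd1, a second enzyme of the same reaction, was low, at 0.270, 1.44, 2.55 and 0.0795 FPKM with OVA-T4 and at 0.248, 1.17, 1.88 and 0.202 FPKM with OVA-T4 + TGFβ. Its highest OVA-T4 library was 32.0-fold above its lowest, and that lowest value rested on 16 reads. Scd1 is 95.5% identical to Scd2 over 623 aligned bases. It took 1.32% ± 0.787 (SD, n = 4) of the summed FPKM of both with OVA-T4 and 1.74% ± 0.967 with OVA-T4 + TGFβ (p = 0.486, two-sided exact permutation test, smallest possible 0.0286). The share was higher with TGFβ in 4 of 4 numbered pairs, for which an exact paired test gives 0.125, the smallest it can give.

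Fads2, which makes the first desaturation of polyunsaturated chains, lies on chromosome 19 from 10062765 to 10101746. It was at 3.04, 8.10, 11.0 and 1.75 FPKM with OVA-T4 and at 1.41, 3.11, 3.82 and 0.481 FPKM with OVA-T4 + TGFβ. Replicates 2 and 3 were again the highest of each group, and each TGFβ library was 2.16-fold to 3.64-fold below its numbered partner. The log2 fold change of -1.19 had a limma adjusted p of 0.127 and 9.99e-05 with the replicate block, and without OVA-T4 replicate 4 it was -1.60 (limma adjusted p = 0.0425).

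Fads1, the neighbouring desaturase that acts later on the same chains, was at 14.8 ± 0.985 FPKM and 16.1 ± 1.33 FPKM and did not pass (log2 fold change 0.11, 95% interval -0.06 to 0.28). The FPKM of Fads2 per FPKM of Fads1 ranged from 0.127 to 0.681 with OVA-T4 and from 0.0332 to 0.218 with OVA-T4 + TGFβ. These ranges overlapped, and the ratio was chosen after the values were seen and was not tested.

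The acyl-CoA synthetases activate fatty acids for use in lipids. Acsl4, which prefers polyunsaturated chains such as arachidonate, fell from 23.3 ± 1.65 FPKM to 20.4 ± 0.748 FPKM (log2 fold change -0.19, limma adjusted p = 0.0329). That call did not hold without OVA-T4 replicate 3 (0.0736) or OVA-T4 + TGFβ replicate 1 (0.0885), 3 (0.0638) or 4 (0.0688). Acsl3, an enzyme of the endoplasmic reticulum and lipid droplets, was at 9.22, 12.4, 16.0 and 6.74 FPKM with OVA-T4 and at 7.50, 9.87, 11.1 and 5.55 FPKM with OVA-T4 + TGFβ. Each TGFβ library was below its numbered partner within overlapping groups, and the log2 fold change of -0.34 had a limma adjusted p of 0.326 and 0.00362 with the replicate block. Acsl3 made up 31.5% ± 6.92 (SD, n = 4) of the summed FPKM of both enzymes with OVA-T4 and 29.0% ± 5.84 with OVA-T4 + TGFβ (p = 0.571, two-sided exact permutation test). The share was lower in 4 of 4 pairs (0.125 by the exact paired test).

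**Figure D3:**
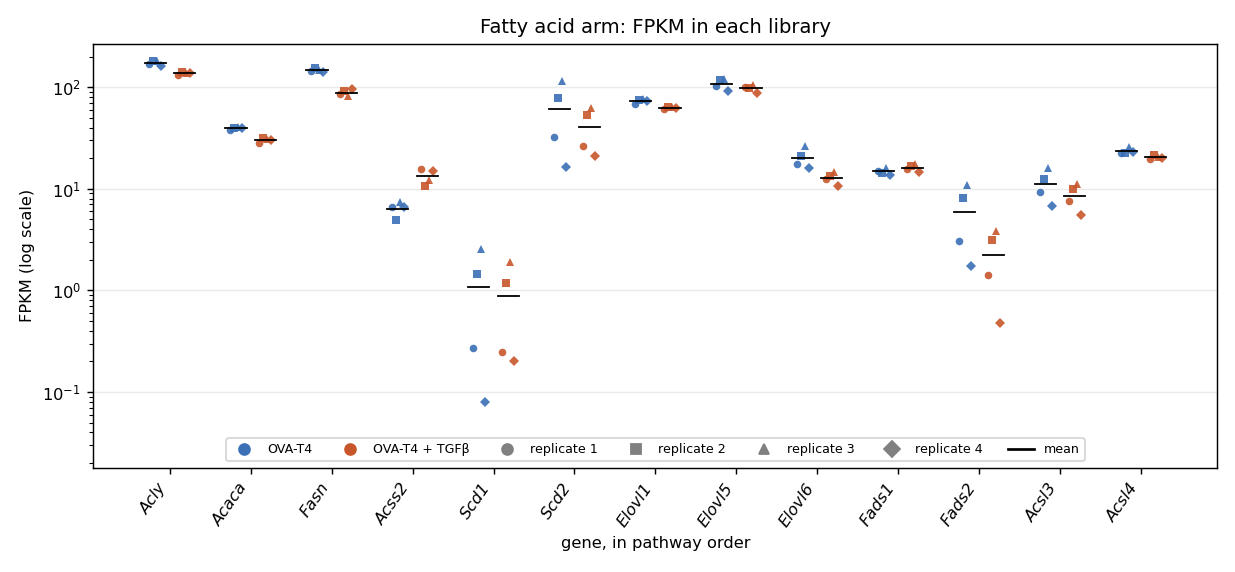
FPKM (y axis, log scale) of the 13 fatty acid members in pathway order (x axis), with 4 OVA-T4 libraries in blue, 4 OVA-T4 + TGFβ libraries in orange, a symbol for each replicate number and bars at the means. Acly, Acaca and Fasn form tight groups that lie apart, Acss2 is the member that moves up without overlap, and Scd1, Scd2, Fads2 and Acsl3 spread widely within each colour.

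In some members more of the variation lay between replicate numbers than between treatments. For each gene the sum of squares of log2(FPKM + 0.5) over the 8 libraries was split into TGFβ, replicate number and a rest. Replicate number held 97.9% of it for Scd1, 97.3% for Sc5d, 90.5% for Scd2 and 83.7% for Acsl3. It held over 50% for 15 of the 31 members (48.4%), beside 24.7% of all genes tested. The median share of TGFβ was 47.5% in the sterol arm, 65.5% in the fatty acid arm and 57.2% over all genes tested. For replicate number the medians were 48.0%, 29.8% and 24.2%, in the same order. Replicate number has more levels than treatment, so it takes a larger part where neither has an effect.

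The direction was shared among members. In 21 of the 31 members (67.7%), 13 sterol and 8 fatty acid, the libraries numbered 2 and 3 were above those numbered 1 and 4 in both groups, beside 11.9% of all genes tested. The opposite pattern occurred in 0 members and in 19.2% of all genes tested. This pattern was noticed in the values and is a description. Macrophage markers stood the other way, with sums of 13.6 and 13.8 FPKM in OVA-T4 replicates 1 and 4 against 7.20 and 4.89 FPKM in replicates 2 and 3. With OVA-T4 + TGFβ they were 46.9 and 37.5 FPKM against 19.1 and 10.9 FPKM. The sums of dendritic cell markers and of CD8 T cell markers had the same order in both groups, and those of B cell markers did not. Dendritic cell markers were at 12.2 and 15.1 FPKM against 8.12 and 5.95 FPKM with OVA-T4. CD8 T cell markers were at 2392 and 2559 FPKM against 2276 and 2272 FPKM with OVA-T4. The part of these cell types in the members' pattern was not tested, and the labels do not say what the replicates with the same number share.

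**Figure D4:**
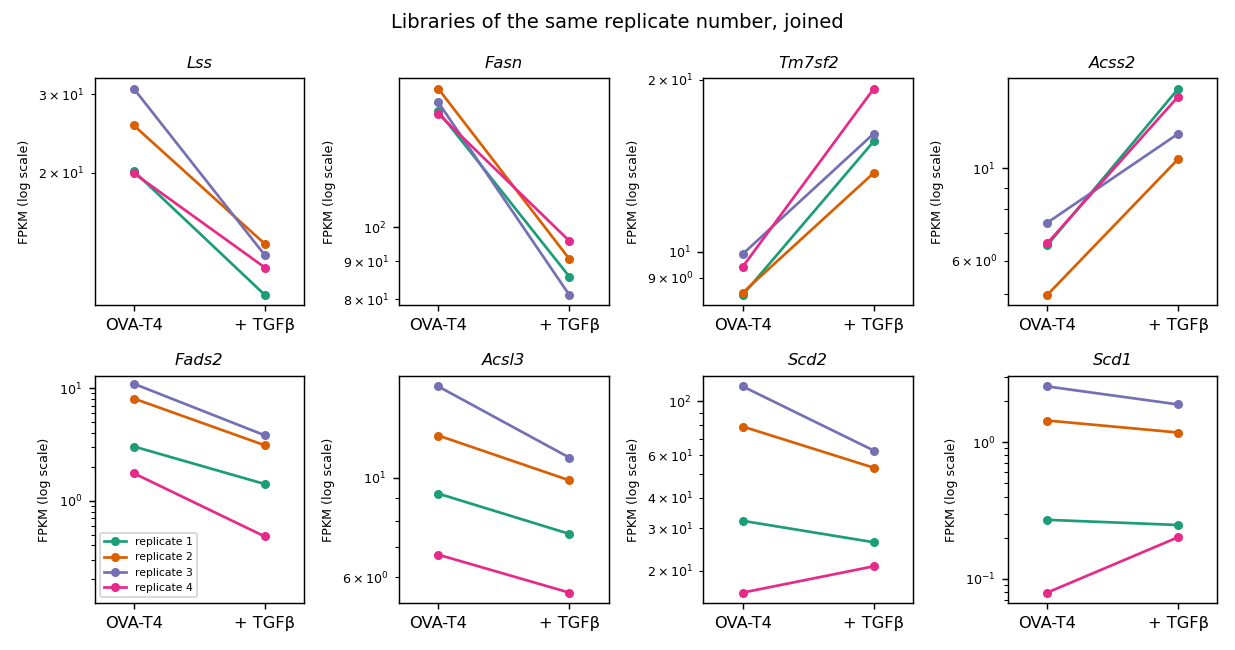
FPKM (y axes, log scale) of 8 members, with lines joining the OVA-T4 and OVA-T4 + TGFβ libraries of the same replicate number (4 colours). Lss and Fasn fall and Tm7sf2 and Acss2 rise along all 4 lines, Fads2 and Acsl3 fall along 4 lines that start far apart, and Scd2 and Scd1 fall along 3 lines and rise for replicate 4.

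**Figure D5:**
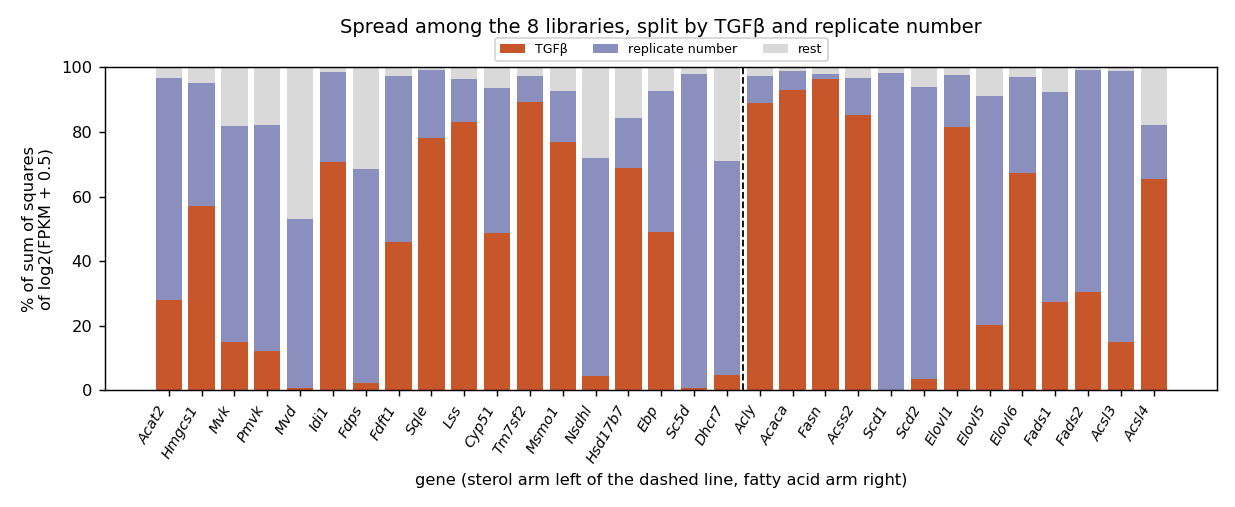
Bars show, for each of the 31 members (x axis), the percent of the sum of squares of log2(FPKM + 0.5) over the 8 libraries (y axis) that lies between treatments (orange), between replicate numbers (violet) and in the rest (grey). TGFβ holds most of the bar for Fasn (96.4%), Acaca (93.0%) and Tm7sf2 (89.3%), and replicate number holds most of it for Scd1 (97.9%) and Sc5d (97.3%).

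RefSeq promoters on GRCm38.p6 were matched for 25 of the 31 members (29 windows), and the 250 bases before each start were searched on both strands. The CCAAT letters, which the factor NF-Y binds and which stand beside SREBP sites in known sterol genes, occurred in 14 of 18 sterol windows (77.8%) and 5 of 11 fatty acid windows (45.5%), beside 33.8% of 32851 windows of all genes. GGGCGG, the GC box, occurred in 83.3% and 63.6%, beside 32.7% of all. CACGTG, an E-box, occurred in 16.7% and 9.09%, beside 6.02%. TCACNCCAC, a short form of the sterol regulatory element, occurred in 1 sterol window, that of Hmgcs1, in 0 fatty acid windows and in 1.05% of all windows. A match is a run of letters and not a binding site, and an absent one says only that these letters were not in this window. The 18 sterol windows are not the 18 sterol members. Dhcr7 and Pmvk have more than 1 window, and Fdps, Fdft1 and Sqle have none. Some windows, such as those of Acaca and Tm7sf2, lie wholly within the annotated gene. The windows of all genes were not limited to genes expressed in these cells, and no comparison with expressed genes was made.

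The windows below show these letters in members that fell (Hmgcs1 and Fasn) and in members that did not pass the test (Mvk, with the most CCAAT matches, and Sc5d, one of the most level). They were picked after the values were seen, from the 12 windows that lie wholly before the annotated gene. They read 5′ to 3′ up to the base before the RefSeq start, and capitals mark CCAAT, its complement ATTGG and, in Hmgcs1, the TCACNCCAC match that begins 137 bases before the start. They are chr13:119690101-119690350 (plus strand) for Hmgcs1, chr11:120824548-120824797 (minus strand) for Fasn, chr5:114444019-114444268 (plus strand) for Mvk and chr9:42264301-42264550 (minus strand) for Sc5d.
Hmgcs1: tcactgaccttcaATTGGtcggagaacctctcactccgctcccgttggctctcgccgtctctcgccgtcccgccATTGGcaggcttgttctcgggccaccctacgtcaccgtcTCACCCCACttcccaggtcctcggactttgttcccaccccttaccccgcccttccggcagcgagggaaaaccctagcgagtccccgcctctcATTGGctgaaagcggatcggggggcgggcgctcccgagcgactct
Fasn: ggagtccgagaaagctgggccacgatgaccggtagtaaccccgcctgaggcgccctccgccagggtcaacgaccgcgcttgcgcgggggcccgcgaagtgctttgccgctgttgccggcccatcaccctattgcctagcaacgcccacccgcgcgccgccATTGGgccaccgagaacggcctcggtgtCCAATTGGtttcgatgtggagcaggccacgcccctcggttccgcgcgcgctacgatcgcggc
Mvk: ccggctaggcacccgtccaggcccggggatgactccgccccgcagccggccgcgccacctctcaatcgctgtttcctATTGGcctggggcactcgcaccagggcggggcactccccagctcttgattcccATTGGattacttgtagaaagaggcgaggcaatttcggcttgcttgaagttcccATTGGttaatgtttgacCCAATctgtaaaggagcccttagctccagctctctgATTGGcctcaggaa
Sc5d: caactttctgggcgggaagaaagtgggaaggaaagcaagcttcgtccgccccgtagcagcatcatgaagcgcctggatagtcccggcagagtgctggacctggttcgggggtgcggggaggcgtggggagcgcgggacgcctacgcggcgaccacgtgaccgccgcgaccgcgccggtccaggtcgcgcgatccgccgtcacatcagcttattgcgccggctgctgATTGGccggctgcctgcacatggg

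Hmgcs1 and Fasn have 3 matches to CCAAT each, of which a pair in Fasn overlaps as one palindrome. Mvk has 5 and Sc5d has 1. These picked windows do not stand for the others. Acly, Acaca, Elovl6 and Acsl4 fell and have 0 matches. Cyp51, Idi1, Lss, Msmo1 and Hsd17b7 fell and have 1 to 3, and Elovl1 has 1 or 0 by window. Tm7sf2 and Acss2, which rose, have 1 each. A link between the letters and the change with TGFβ was not tested.

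Of 9 other sterol genes, 0 were higher and 6 were lower (66.7%), beside 30.7% higher and 20.2% lower of all genes tested. Pdss1, which makes the side chain of ubiquinone from isoprene units, fell from 18.7 ± 0.768 FPKM to 11.8 ± 1.13 FPKM (log2 fold change -0.65, limma adjusted p = 0.000140).

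Of 23 other genes of fatty acid synthesis, 14 passed the filter on low values. Of these, 6 were lower (42.9%) and 2 were higher (14.3%), beside 20.2% and 30.7% of all genes tested. Hacd1, a dehydratase of chain elongation, had a log2 fold change of -0.84, Fads6, a desaturase family member, -0.72, and Mecr, of the mitochondrial synthesis route, -0.49. Elovl7, an elongase at 0.776 ± 0.181 FPKM, rose by 0.62 on the log2 scale and Hacd3 by 0.20 (adjusted p = 0.00864 and 0.0381 from limma).

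Of the regulators and transport genes, 15 were tested from a list of 17, 5 were higher (33.3%) and 1 was lower (6.67%). Among all genes tested, 30.7% were higher and 20.2% lower, so the share of higher genes was near that of all genes. After median of ratios scaling 3 were higher and 3 lower. Without OVA-T4 + TGFβ replicate 1, 3 were higher and 0 lower. Leaving out OVA-T4 replicate 3 also gave 0 lower genes, while leaving out OVA-T4 replicate 4 gave 3 and OVA-T4 + TGFβ replicate 3 gave 2. Soat1, which esterifies cholesterol for storage, rose from 16.3 ± 1.41 FPKM to 33.0 ± 1.25 FPKM (log2 fold change 1.00, limma adjusted p = 6.74e-06). Mbtps1, the protease that makes the first cut in SREBP, rose by 0.78 and Insig2, which holds the SREBP complex back, by 0.50. Stard4, a sterol carrier, fell by 0.32 on the log2 scale (limma adjusted p = 0.0200).

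Neither SREBP gene passed the limma test on FPKM without the block. Srebf2, which mainly drives sterol genes, was at 73.0 ± 6.47 FPKM and 70.5 ± 1.62 FPKM (log2 fold change -0.05, limma adjusted p = 0.568). Srebf1, which mainly drives fatty acid genes, was at 90.2 ± 19.3 FPKM and 115 ± 12.6 FPKM. Its limma adjusted p was 0.0600, and 0.00166 with the replicate block, where it was higher. Without the block, limma after median of ratios scaling gave Srebf1 0.201, and voom on the solved reads gave 0.0491. Insig1, a feedback target of SREBP, had a log2 fold change of -0.36, with an adjusted p of 0.0567 from limma and 0.00183 with the block. Without the block, limma after median of ratios scaling gave Insig1 0.0344, and voom gave 0.0495. With the block 7 of these 15 genes were higher and 4 were lower, beside 35.5% and 25.4% of all genes tested.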

How the data were processed

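RNA was measured in OT-I T cells given OVA-T4 alone or together with TGFβ, 4 libraries each. Groups and replicate numbers came from the sample labels. The authors deposited FPKM values, already scaled to gene length and library total. CASAVA, HISAT2, HTSeq and the build mm10 are named, without versions, in the submitters' processing notes. The annotation release and the use of strand are not given in the sources used here. For RNA isolation the labels and the methods name different kits.

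The 12879 of 47069 genes whose mean reached 0.5 FPKM were compared by limma 3.58.1 (R 4.3.3) on log2(FPKM + 0.5), two-sided with a variance trend, and p-values were adjusted over all of them by Benjamini-Hochberg. The pseudocount understates changes of low genes. The thresholds were 0.05 for the adjusted p and, where given, 1.5 for the fold. The test was tested on simulated data. Named are all 31 members and, from each other list, up to 3 rises and 3 falls with the largest change that passed, plus Srebf1, Srebf2 and Insig1. Some genes that this rule names are not reported here. The members and lists were chosen with earlier results of these data known.

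For all 23842 genes above 0, a length could be found at which the FPKM values became whole reads (tolerance 0.005 reads). The solved length is the smallest that gives whole reads, so reads may be understated by a common factor. Intervals cover replicate spread, and read numbers cover counting error only.

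Both groups carry replicate numbers 1 to 4. Deviations from the group means, correlated across genes, gave r of 0.179, 0.205, 0.419 and 0.505 for partners with a shared number and -0.489 to 0.254 otherwise. As each of the first was above 0.1, pairing by number was accepted on the data alone, since the labels state none. OVA-T4 + TGFβ replicate 1 had a higher r with OVA-T4 replicate 4 (0.246) than with its partner. OVA-T4 + TGFβ replicate 2 had a higher r with OVA-T4 replicate 3 (0.239). For OVA-T4 + TGFβ replicates 3 and 4 the partner gave the highest r. These values do not settle the pairing, and p-values with the block rest on it. P-values measure the spread between these samples.

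Positions came from GENCODE M21 (GRCm38; 98.9% of gene IDs), promoters from RefSeq (GRCm38.p6) and near-identical copies from blastn 2.17.0. Alternatives were other pseudocounts, filters and scalings, no variance trend, the replicate block, voom on the solved reads and omission of each library. Python 3.11.15 with pandas 2.3.3, SciPy 1.17.1 and matplotlib 3.10.9 was used for the rest.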

Additional observations from a re-analysis of the deposited data

Results flagged for a closer look

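Among 70 groups of 4 values that were screened for a single library far from the rest, 2 were flagged. Chance alone flags about 1 in 20 such groups, so 2 of 70 is no more than chance gives. Hsd17b7 was at 15.3 FPKM in OVA-T4 replicate 4, against 12.6 to 13.1 FPKM in the other OVA-T4 libraries. Acsl4 was at 25.8 FPKM in OVA-T4 replicate 3, against 22.3 to 22.8 FPKM in the other OVA-T4 libraries. Both genes passed as lower with TGFβ, and without that library Acsl4 had an adjusted p of 0.0736 from limma.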

How the results depend on the processing

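No member that passed changed sign under any alternative. Fads1, Fdps, Mvd, Nsdhl, Sc5d, Scd1 and Scd2, which did not pass, changed sign under at least 1 scaling, omission or fit on reads. Over all genes tested, higher calls outnumbered lower ones (3955 and 2607), and the balance turned after median of ratios scaling (3122 and 3462) and quantile normalization (2987 and 3400). Over the 31 members, omission of each library left 234 of 248 calls as they were, with calls lost for Acsl4, Cyp51, Hmgcs1 and Hsd17b7 and gained for Ebp, Fads2 and Fdft1. The other planned settings left 238 of 247, with calls lost for Acsl4, Cyp51 and Hsd17b7 and gained for Ebp and Fdft1. The replicate block left 25 of 31 and lost 0, and it changed no other call of a member than the 6 given in the results. With omissions the sterol members that passed ranged from 4 to 8 lower and from 1 to 2 higher, the other fatty acid synthesis genes from 1 to 2 higher, and the regulators from 3 to 6 higher and 0 to 3 lower. The higher sterol members were 2 under TPM scaling and the block. The higher genes among the other fatty acid synthesis genes were 1 with no filter, median of ratios scaling, quantile normalization or no variance trend. The regulators were 3 higher and 3 lower after median of ratios scaling, 4 lower after quantile normalization and 4 lower with the block.

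Further alternatives were chosen after seeing the data. Voom on the solved reads gave 3 lower regulators, and with the block 4, 2 higher sterol members and 10 lower fatty acid members. Median of ratios scaling with the block gave 12 lower sterol members, 4278 lower genes in all, 5 lower regulators and 1 higher gene of other fatty acid synthesis. With the block and 1 replicate number left out of both groups, the sterol members stood at 2 higher, the regulators at 3 to 4 lower and the other fatty acid synthesis genes at 1 to 2 higher. The causes were not tested. Depth limits Scd1, Fads2 and Fdps most, and 4 libraries a group limit Scd1, Scd2 and Fads2, whose intervals without the block span over 2 on the log2 scale.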

Other observations

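Fatty acid oxidation, the opposing pathway, was followed with a list of 19 genes, of which 8 rose and 3 fell, beside 30.7% higher and 20.2% lower among all genes tested. With the replicate block 12 were higher and 4 were lower, beside 35.5% and 25.4% of all genes tested. Cpt1a, which passes fatty acids to the carnitine shuttle and sets the pace of their entry into mitochondria, rose from 9.58 ± 2.06 FPKM (SD, n = 4) to 18.3 ± 3.33 FPKM (log2 fold change 0.91 ± 0.17 SE, limma adjusted p = 0.00186). Slc25a20, the carnitine carrier, rose by 0.47 on the log2 scale. Etfb, a subunit of the electron transfer flavoprotein, had a log2 fold change of -0.54, Eci1, an isomerase for unsaturated chains, of -0.37 and Echs1, a hydratase, of -0.25. The rise in Cpt1a and the falls in Fasn and Acaca were measured in the same libraries, and no test compared the 2 lists.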
